A study of Mus musculus with 12 samples.

Results

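The genes described here are 10 genes of the small RNA pathways of the mouse germ line, chosen by symbol from a table of 24259 gene symbols, and all 10 were present in it. *Dicer1* and *Ago2* belong to the endogenous siRNA pathway. *Mov10l1*, *Pld6*, *Mael*, *Gpat2*, *Tdrd1*, *Tdrd9*, *Piwil2* and *Piwil4* belong to the piRNA pathway. Their transcripts were measured in germinal vesicle (GV) oocytes of WT mice and of *Lsm14b*-KO mice, which lack the RNA-binding protein LSM14B.

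Both genotypes were kept on a C57BL/6J background, and the KO mice were homozygous for Lsm14b tm1a(KOMP)Mbp, a knockout-first insertion with a reporter that affects the whole animal and not the oocyte alone. Mice of both genotypes were 3 weeks old and had received 5 IU of PMSG, a gonadotropin that drives follicle growth, 46 h before oocyte collection. Oocytes were held in cycloheximide, which keeps ribosomes on mRNA, and lysates of about 1500 oocytes were run on sucrose gradients, with the number of animals behind a lysate not given in the sources used here. Fractions 1 to 10 formed the RNP pool, which holds mRNA free of polysomes, and fractions 11 to 28 formed the polysome pool. Each of the 4 groups (WT polysome, KO polysome, WT RNP and KO RNP) had 3 libraries, 12 in all. The labels do not state whether libraries came from separate collections, so the p-values measure only the spread between these libraries.

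Endogenous siRNAs are cut by DICER1 from double-stranded RNA and are loaded onto AGO2, which slices matching transcripts. Mouse oocytes rely on this pathway to restrain retrotransposons, and they carry a shorter DICER1 made from a promoter inside the gene. piRNAs are longer, do not need DICER1 and guide PIWI proteins against transposons. Loss of piRNA genes is known to sterilise male mice, while females stay fertile.

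The annotated promoters of *Dicer1* and *Mael*, the genes called between genotypes in at least 1 pool, are given below. They stand as RefSeq lists them on GRCm38, with 250 bases before the start and 50 after it. The *Dicer1* window lies on the minus strand at chr12:104751903-104752202 and the *Mael* window on the minus strand at chr1:166238695-166238994. Capitals mark an E-box (CANNTG, the core bound by helix-loop-helix factors such as FIGLA) or a MYB core (AACNG, the core bound by MYB factors), searched on both strands.
Dicer1 promoter: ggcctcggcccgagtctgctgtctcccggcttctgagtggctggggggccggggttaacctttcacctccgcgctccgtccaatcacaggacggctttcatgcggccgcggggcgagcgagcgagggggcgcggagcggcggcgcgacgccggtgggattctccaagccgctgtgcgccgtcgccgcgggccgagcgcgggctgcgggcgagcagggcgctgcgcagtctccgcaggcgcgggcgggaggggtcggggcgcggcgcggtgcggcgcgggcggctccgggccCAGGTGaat
Mael promoter: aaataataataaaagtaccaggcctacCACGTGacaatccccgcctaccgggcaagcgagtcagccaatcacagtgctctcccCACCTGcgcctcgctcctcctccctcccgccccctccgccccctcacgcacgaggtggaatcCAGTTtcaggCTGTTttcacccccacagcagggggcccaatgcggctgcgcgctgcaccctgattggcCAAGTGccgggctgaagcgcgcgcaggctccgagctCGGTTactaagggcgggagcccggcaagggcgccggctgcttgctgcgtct
The *Dicer1* window held 49 CpG, against a median of 7 over 32851 RefSeq promoters, of which 1.02% held as many. It held 1 E-box and no MYB core. The *Mael* window held 24 CpG, 3 E-boxes and 3 MYB cores, with no overlap between the motifs. An E-box was found in 72.3% of all promoters and a MYB core in 80.3%, 17.6% held 3 or more E-boxes and 27.0% held 3 or more MYB cores. The shorter oocyte form of *Dicer1* starts elsewhere, so the window above does not cover its start, and the table has 1 value per gene symbol and does not separate the forms.

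The study names the hexamer CCUCUC for RNA bound by LSM14B, and the windows of 30 bases below, read 5′ to 3′ from the longest coding transcripts of GENCODE M21, show where these letters stood (in capitals, written as DNA) in the 2 transcripts with the highest levels.
Dicer1 exon 23: cagggagctgtgCCTCTCcagttggcccac
Dicer1 exon 27: acttagaacatcCCTCTCccccatgcgcgc
Tdrd1 exon 1: ccgccccaggacCCTCTCagaagtcctgta
Tdrd1 exon 25, site a: agtgacttttagCCTCTCcgctgtgcttgc
Tdrd1 exon 25, site b: cgggtttgctgcCCTCTCcccgattctttc
Tdrd1 exon 25, site c: tagaagctcgagCCTCTCatgtacgaggca
On GRCm38 the *Dicer1* windows lie on the minus strand at chr12:104696481-104696510, in the coding sequence, and chr12:104689878-104689907, in the 3′ UTR. The *Tdrd1* windows lie on the plus strand, at chr19:56831151-56831180 in the coding sequence and at chr19:56868818-56868847, chr19:56868862-56868891 and chr19:56869183-56869212 in the 3′ UTR. A further *Dicer1* window spanned an exon junction, which gave *Dicer1* 3 sites and *Tdrd1* 4. *Tdrd1* had 0.771 sites per kb and *Dicer1* 0.305 sites per kb, against a median of 0.306 over 21877 transcripts. Of 1522 transcripts of a length like that of *Tdrd1*, 21.6% held as many, and of 297 of a length like that of *Dicer1*, 68.4% did. *Mael* held none of these letters, and the median of transcripts of like length was also 0. *Ago2*, with a long transcript of 13800 bases, held 6, all in its 3′ UTR. The median of transcripts of a length like that of *Ago2* was also 6, and 55.1% held as many. The other genes held 1 or 2. A match of letters is a description of the transcript and not a measured binding site. The study did measure LSM14B binding in oocytes, by LACE-Seq, which maps a protein on RNA, and that map was not used here. Its supplement names DICER1 among oogenesis factors found by LACE-Seq and by mass spectrometry of LSM14B partners. That list does not say which method found DICER1.

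The loss of *Lsm14b* was checked first. Its FPKM was 11.3, 15.3 and 13.2 in WT polysomes and 0.260, 0 and 0.0876 in KO polysomes. It was 34.6, 29.3 and 27.4 in the WT RNP pool and 0.893, 0.0627 and 0 in the KO RNP pool. FPKM divides the fragments of a gene by its transcript length and by the mapped fragments of its library, so levels of different genes can be set side by side. Each library listed 10566 to 12720 genes above 0, and the 10 highest genes took 11.6% to 14.7% of the summed FPKM in all libraries but KO polysome replicate 2, where they took 34.7%. The highest entry of that library was *Mir300* at 170809 FPKM, of a summed 698228 FPKM. From the steps of low FPKM values the depth was estimated at 4.89 to 7.94 M (mega) fragments per library. The 15 oocyte markers summed to 30338 to 32388 FPKM in WT polysomes and 34172 to 36714 in KO polysomes, and to 11481 to 11814 and 12499 to 13011 in the WT and KO RNP pools. The 11 granulosa and cumulus markers summed to 27.2 to 75.5 FPKM in WT polysomes and 81.4 to 103 in KO polysomes, and to 31.3 to 35.3 and 43.2 to 65.5 in the RNP pools. Of these 11, 3 of 7 tested were called higher in KO polysomes and 1 of 4 tested in the KO RNP pool. Over all genes, 10.4% and 20.7% were called in either direction. *Fshr* and *Inhba* in polysomes and *Inha* in the RNP pool met the filter on low values through KO libraries alone. Their calls are therefore set aside, which leaves the call of *Inha* in polysomes. Mean FPKM in WT and KO polysomes was 5.90 and 43.4 for *Inha*, 0.0839 and 7.96 for *Inhba* and 0.233 and 4.75 for *Fshr*. For *Inha* it was 0.0799 and 6.96 in the WT and KO RNP pools. Of the 7 markers that met the filter in polysomes, 5 had a change above 0 on the log2(FPKM + 1) scale, *Fshr* and *Inhba* among them. The other markers, *Cyp19a1* and *Kitl*, had lower means in KO polysomes. They were at 37.7 and 24.2 FPKM and at 1.56 and 1.48 FPKM in WT and KO. *Foxl2* and *Amhr2* were listed at 0 in all polysome and all WT RNP libraries, and each was above 0 in 1 KO RNP library (1.01 and 0.749 FPKM). The 8 theca, stroma and endothelium markers summed to 14.1 to 41.8 FPKM over all libraries, of which *Pecam1* alone was at 13.2 to 41.0 FPKM. The 8 blood and immune markers summed to at most 3.13 FPKM. The part of somatic cells in the results below was not tested, and fewer cells of a type cannot be told apart from less RNA per cell.

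The 10 genes spanned a wide range of levels. By mean FPKM over the 12 libraries, 4 genes were at 10 or more: *Tdrd1* (71.3), *Dicer1* (51.0), *Mael* (23.6) and *Pld6* (11.7). Another 2 lay between 1 and 10, *Tdrd9* (4.31) and *Ago2* (2.62). The remaining 4 lay under 1, with *Piwil2* at 0.684, *Gpat2* at 0.484, *Mov10l1* at 0.294 and *Piwil4* listed at 0 in all libraries. *Tdrd1* was above *Dicer1* in both WT pools and in KO polysomes with no overlap between their libraries. In the KO RNP pool the order was *Dicer1*, *Mael* and *Tdrd1*, again with no overlap between neighbours. *Pld6* and *Mael* overlapped in both WT pools and in KO polysomes, as did *Tdrd9* and *Ago2* in both WT pools and in the KO RNP pool. The plot of FPKM by library shows these levels for the 9 genes that were detected.

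**Figure D1:**
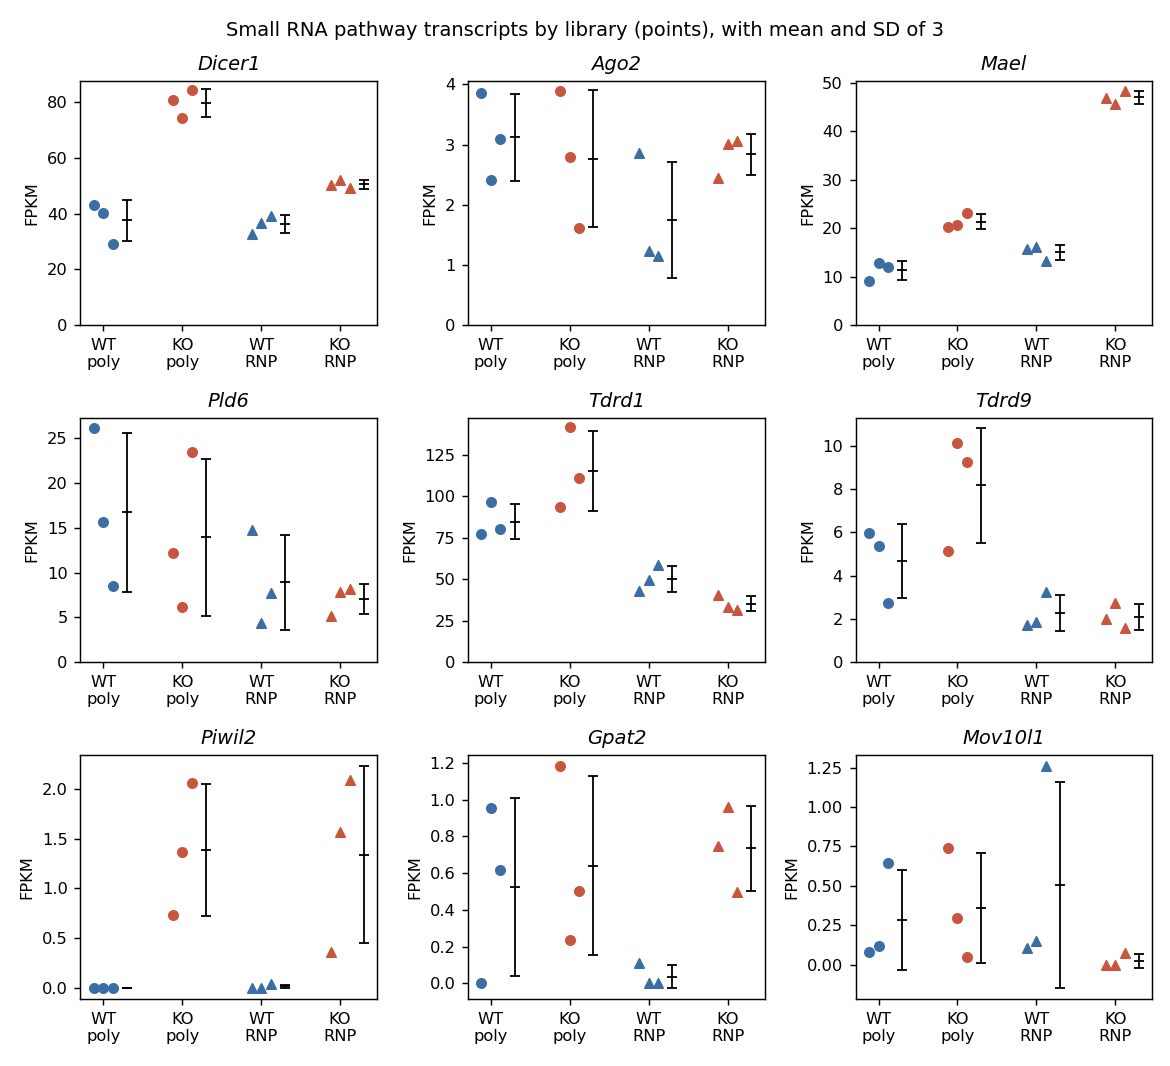
FPKM (y axis, linear, a separate scale for each gene) of 9 small RNA pathway genes in each of 3 libraries per group, WT in blue and KO in red, polysome pool as circles and RNP pool as triangles, with black bars for mean and SD. *Dicer1* and *Mael* lay higher in all KO libraries than in all WT libraries of the same pool, and *Piwil2* was above 0 in all 6 KO libraries.

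The first question was whether the transcripts of the endogenous siRNA enzymes differed between genotypes. *Dicer1*, the RNase III enzyme that cuts siRNA and miRNA precursors, lies at chr12:104687742-104751952 on the minus strand with 27 exons. Its FPKM in polysomes was 43.2, 40.1 and 29.2 in WT and 80.6, 74.4 and 84.2 in KO. In the RNP pool it was 32.8, 36.5 and 39.1 in WT and 50.3, 52.2 and 49.0 in KO. All KO libraries were above all WT libraries in both pools. The mean was 2.13-fold higher in KO polysomes (79.8 ± 4.97 against 37.5 ± 7.36 FPKM, SD, n = 3 each) and 1.40-fold higher in the KO RNP pool (50.5 ± 1.58 against 36.2 ± 3.16). With limma on log2(FPKM + 1) and Benjamini-Hochberg adjustment over all genes tested, *Dicer1* rose by 1.08 (SE 0.20, adjusted p = 0.0132) in polysomes and by 0.47 (SE 0.14, adjusted p = 0.0469) in the RNP pool. In polysomes 10.4% of the 9536 genes tested passed this test, and in the RNP pool 20.7% of 9931 genes did. The median change of all genes was 0.10 in polysomes and 0.054 in the RNP pool. The polysome call was not kept without KO polysome replicate 3 (adjusted p = 0.0598) and held without KO polysome replicate 2 (change 1.13, adjusted p = 0.0467). The RNP call was lost in 5 of 6 cases of leaving out 1 library, all but WT RNP replicate 3 (adjusted p up to 0.152). Without the intensity trend in limma both calls were lost (adjusted p = 0.0571 in polysomes and 0.100 in the RNP pool).

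*Ago2*, the slicing Argonaute that uses siRNAs as guides, was at low level and overlapped between genotypes. Its FPKM was 3.85, 2.41 and 3.10 in WT polysomes and 3.89, 2.79 and 1.61 in KO polysomes. Its RNP values were 2.86, 1.23 and 1.16 in WT and 2.45, 3.01 and 3.06 in KO. By limma with Benjamini-Hochberg adjustment the difference was -0.16 (95% interval -1.19 to 0.86, adjusted p = 0.855) in polysomes and 0.53 (-0.32 to 1.39, adjusted p = 0.364) in the RNP pool. These intervals are wide, so neither a rise nor a fall of this size was detectable at this spread. *Ago2* (chr15:73095844-73184935, minus strand) overlaps *Chrac1* in the annotation, and fragments of the overlap may be counted to either gene.

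Among the piRNA genes, *Mael*, which encodes an HMG-box protein of germ granules needed to silence transposons, had the largest RNP difference between genotypes on the log2(FPKM + 1) scale among the 6 genes tested. Its FPKM there was 15.7, 16.0 and 13.3 in WT and 46.9, 45.6 and 48.4 in KO. In polysomes it was 9.12, 12.7 and 11.97 in WT and 20.1, 20.8 and 23.1 in KO. The groups did not overlap in either pool, and the RNP mean was 3.13-fold higher in KO (47.0 ± 1.39 against 15.0 ± 1.48 FPKM, SD, n = 3 each). By limma with Benjamini-Hochberg adjustment *Mael* rose by 1.59 (SE 0.17, adjusted p = 0.000377) in the RNP pool, a call kept with each library left out in turn (1.51 to 1.64). The polysome difference of 0.87 (SE 0.28, adjusted p = 0.0837) did not pass, although the mean was 1.89-fold higher in KO. *Mael* lies at chr1:166201201-166238747 on the minus strand.

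*Tdrd1* encodes a Tudor-domain scaffold that binds methylated PIWI proteins in germ granules, and its transcript was the most abundant of the 10. Its FPKM in polysomes was 77.1, 96.5 and 80.5 in WT and 93.4, 141 and 111 in KO. In the RNP pool it was 42.8, 49.3 and 58.6 in WT and 40.3, 33.4 and 31.7 in KO. The genotypes overlapped in polysomes, while all KO libraries were below all WT libraries in the RNP pool. By limma with Benjamini-Hochberg adjustment neither difference passed, with 0.43 (SE 0.19, adjusted p = 0.198) in polysomes and -0.50 (SE 0.17, adjusted p = 0.0735) in the RNP pool. *Tdrd1* lies at chr19:56826209-56870012 on the plus strand.

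*Tdrd9*, a helicase with a Tudor domain, was at 5.97, 5.35 and 2.72 FPKM in WT polysomes and 5.16, 10.1 and 9.24 in KO polysomes. RNP values were 1.73, 1.86 and 3.24 in WT and 1.98, 2.76 and 1.58 in KO. The genotypes overlapped in both pools, and the differences by limma were 0.70 (SE 0.45, adjusted p = 0.368) and -0.066 (SE 0.37, adjusted p = 0.923). *Pld6*, a mitochondrial protein needed to form the ends of piRNA precursors, varied widely between libraries of 1 group, with 26.1, 15.6 and 8.51 FPKM in WT polysomes and 12.1, 6.18 and 23.4 in KO polysomes. Its RNP values were 14.7, 4.34 and 7.69 in WT and 5.11, 7.84 and 8.22 in KO. The genotypes overlapped, with differences by limma of -0.30 (95% interval -1.51 to 0.91, adjusted p = 0.770) and -0.18 (-1.11 to 0.74, adjusted p = 0.795). *Pld6* has a short transcript of 948 bases, and its values rested on an estimated 21.8 to 120 fragments per library, against 2240 to 5136 for *Dicer1*.

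**Figure D2:**
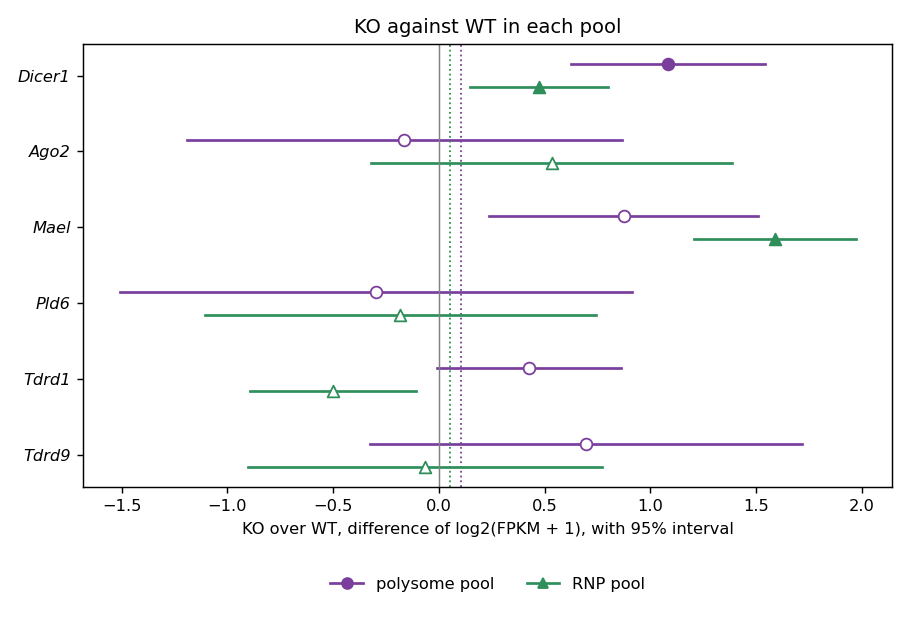
Difference between KO and WT on the log2(FPKM + 1) scale (x axis) with 95% interval for the 6 genes tested, polysome pool as purple circles and RNP pool as green triangles, filled where the adjusted p was under 0.05, with dotted lines at the median of all genes. *Dicer1* was filled in both pools (1.08 and 0.47) and *Mael* in the RNP pool (1.59).

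In all, 6 of the 10 genes passed the filter on low values (at least 1 FPKM in at least 3 libraries of a comparison) in each pool. In polysomes, 2 of these 6 did not overlap between genotypes, against 31.7% of all genes tested, and in the RNP pool 3 did not overlap, against 39.2%. A test of 3 against 3 libraries by exact permutation cannot go below p = 0.1.

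The other 4 genes were near or at 0 in WT oocytes. *Piwil2* encodes a PIWI protein that takes piRNAs in fetal and early postnatal germ cells. It was listed at 0 in all 3 WT polysome libraries and at 0, 0 and 0.0321 FPKM in the WT RNP pool. In KO it was 0.732, 1.36 and 2.06 FPKM in polysomes and 0.355, 1.57 and 2.09 in the RNP pool. All 6 KO libraries were above all 6 WT libraries, with an exact two-sided permutation p of 0.1 in each pool, the smallest possible. The highest value rested on an estimated 65.0 fragments. With no filter on low values, the differences by limma were 1.22 (adjusted p = 0.0610) in polysomes and 1.13 (adjusted p = 0.0828) in the RNP pool, and neither passed. In polysomes *Piwil2* entered this test through KO libraries alone, and its WT values in the RNP pool were at or near 0. Both differences are therefore set aside. No fold is given, because most WT values were listed at 0. Whether an exact 0 in this table is absence of the transcript or a failed estimate was not tested. *Wdr77*, a gene that most cells use, was listed at 0 in all WT and all KO RNP libraries. In KO polysomes *Wdr77* was at 0, 1.71 and 0.420 FPKM.

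*Gpat2*, an acyltransferase of the mitochondrial outer membrane that supports piRNA formation, was at 0, 0.954 and 0.618 FPKM in WT polysomes and 1.18, 0.237 and 0.501 in KO polysomes. In the RNP pool it was 0.110, 0 and 0 in WT and 0.747, 0.959 and 0.495 in KO. The RNP groups did not overlap. With no filter *Gpat2* passed limma there (0.73, adjusted p = 0.0345), from values that rested on at most an estimated 18.9 fragments. *Gpat2* was above 0 in 1 WT and 3 KO libraries of that pool. It did not meet the filter on low values, so this call is set aside. *Mov10l1*, the helicase that feeds transcripts into piRNA formation, was at 0.0825, 0.119 and 0.647 FPKM in WT polysomes and 0.740, 0.295 and 0.0517 in KO polysomes. Its RNP values were 0.104, 0.152 and 1.26 in WT and 0, 0 and 0.0776 in KO, and the RNP difference with no filter did not pass (-0.47, adjusted p = 0.380). *Piwil4*, the nuclear PIWI protein of fetal male germ cells, was listed at 0 in all 12 libraries.

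The second question was how the level of each transcript compared between the pools. FPKM is scaled to the mapped fragments of each library. Ratios between pools are therefore relative levels and not the amounts of a transcript in each pool. In WT oocytes *Tdrd1* leaned towards polysomes, with a mean 1.69 times that of the RNP pool. By limma with Benjamini-Hochberg adjustment it was 0.75 higher (SE 0.19, adjusted p = 0.0329), and it was the 1 gene of 6 tested that passed, against 14.7% of 9574 genes. The call was lost in 4 of 6 cases of leaving out 1 library, namely WT polysome replicate 2 or 3 and WT RNP replicate 1 or 2 (adjusted p up to 0.113), and without the intensity trend (adjusted p = 0.108). Libraries of the 2 pools did not overlap for *Tdrd1*, higher in polysomes, and for *Mael*, lower in polysomes, against 34.6% of all genes. *Dicer1* had nearly the same mean FPKM in the WT pools, with a ratio of means of 1.04 and a difference of 0.037 (95% interval -0.48 to 0.56).

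In KO oocytes 4 of the 7 genes tested differed between the pools, against 29.2% of 9851 genes, and the same 4 genes had no overlap between pools, against 44.2%. *Tdrd1* was 3.28 times as high in polysomes as in the RNP pool by means (1.67, SE 0.18, adjusted p = 0.00016 by limma). *Tdrd9* was 3.88 times as high (1.53, SE 0.35, adjusted p = 0.0102) and *Dicer1* 1.58 times (0.65, SE 0.12, adjusted p = 0.00429). *Mael* went the other way, with a mean FPKM in polysomes 0.455 times that in the RNP pool (-1.10, SE 0.15, adjusted p = 0.000732). *Pld6*, *Ago2* and *Piwil2* did not pass, with ratios of means of 1.97, 0.972 and 1.04.

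**Figure D3:**
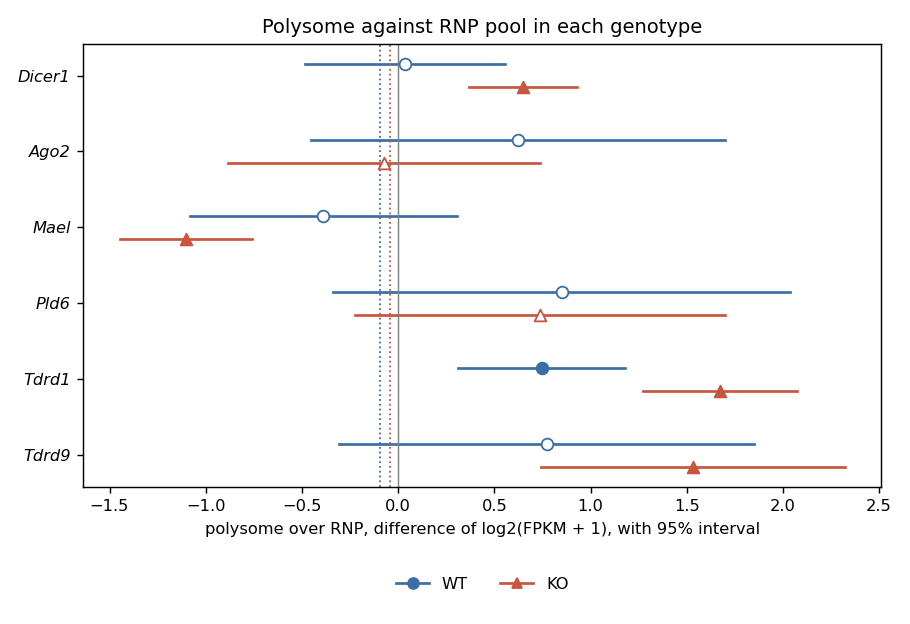
Difference between the polysome and RNP pools on the log2(FPKM + 1) scale (x axis) with 95% interval for 6 genes, WT as blue circles and KO as red triangles, filled where the adjusted p was under 0.05, with dotted lines at the median of all genes. *Tdrd1* was filled in both genotypes (0.75 and 1.67), and *Mael* lay to the left in KO (-1.10).

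Whether the ratio of levels between pools differed between genotypes was tested with all 12 libraries in 1 model, by a genotype-by-pool term. Of the 10 genes, 7 met the filter, but *Piwil2* met it through KO libraries alone and was at or near 0 in WT, so it had no WT ratio to compare. None of the other 6 passed limma with Benjamini-Hochberg adjustment, and 0.237% of 10949 genes did. At an unadjusted p under 0.05 there were 3 genes. *Tdrd1* had the largest of these, 0.93 more towards polysomes in KO (SE 0.26, 95% interval 0.36 to 1.49, unadjusted p = 0.00374, adjusted p = 0.190). *Dicer1* shifted by 0.61 in the same direction (0.094 to 1.13, adjusted p = 0.352), and *Mael* by -0.71 (-1.33 to -0.10, adjusted p = 0.356). The calls seen in KO and not in WT are therefore not shown to differ between the genotypes.

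Other genes of the same pathways were read from 2 lists. Of 18 further genes of small RNA formation and the RISC complex, which carries the guide RNA, 10 had a mean of at least 5 FPKM and 5 were under 1. In polysomes, 2 of 13 tested rose in KO and 1 fell, and in the RNP pool 1 of 13 rose and 1 fell, where 10.4% and 20.7% of all genes were called in either direction. *Tsnax* and *Tsn* encode the subunits of C3PO, an endonuclease that helps to activate RISC. *Tsnax* rose by 0.68 (SE 0.15, adjusted p = 0.0250) in polysomes and by 0.92 (SE 0.12, adjusted p = 0.00106) in the RNP pool, and *Tsn* rose by 0.96 (SE 0.20, adjusted p = 0.0207) in polysomes. *Eri1*, an exonuclease that trims siRNA and histone mRNA ends, fell by 1.94 (SE 0.49, adjusted p = 0.0409) in polysomes and by 1.17 (SE 0.31, adjusted p = 0.0261) in the RNP pool. The median change of this list was 0.40 in polysomes and 0.0020 in the RNP pool, against 0.10 and 0.054 for all genes.

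Of 24 further piRNA genes, 21 were matched in the table, and 12 of these had a mean of at least 5 FPKM. In polysomes 1 of 18 tested rose in KO and none fell, and in the RNP pool 2 of 17 rose and 1 fell. The gene that fell, *Mybl1*, met the filter on low values through the WT libraries, where it was high, so its call is set aside. The shares called in either direction over all genes, 10.4% and 20.7%, were above those of this list in both pools. *Tex15*, which acts with nuclear PIWI proteins in the male germ line, was at 46.5, 40.7 and 27.2 FPKM in WT polysomes and 87.4, 106 and 117 in KO polysomes, with no overlap. It rose by 1.44 (SE 0.23, adjusted p = 0.00868 by limma) in polysomes and by 1.19 (SE 0.23, adjusted p = 0.00676) in the RNP pool. *Asz1*, a partner of mitochondria-bound piRNA factors, rose by 0.90 (SE 0.27, adjusted p = 0.0451) in the RNP pool. The median change of this list was 0.36 in polysomes and 0.22 in the RNP pool, against the same 0.10 and 0.054 for all genes.

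The pools were compared for these lists in the same way, with 14.7% of all genes called in either direction in WT, 29.2% in KO and 0.237% for the genotype-by-pool term. Of the RISC list 1 of 12 was higher in polysomes in WT, namely *Tsnax*, and in KO 5 of 14 were higher (*Ago3*, *Tnrc6b*, *Tsn*, *Tsnax* and *Limd1*) and *Tarbp2*, the partner of DICER1, was lower (-0.81, adjusted p = 0.0102). Of the piRNA list 2 of 17 were higher in polysomes in WT (*Asz1* and *Tex15*) and *Henmt1*, which methylates piRNA ends, was lower (-0.84, adjusted p = 0.0404). In KO 7 of 17 were higher, *Tdrd6* among them, which met the filter on low values through KO polysomes alone, so its call is set aside. The others were *Asz1*, *Tex15*, *Ddx4* (1.10, adjusted p = 0.00757), *Tdrd5*, *Stk31* and *Exd1*. In KO *Henmt1* (-0.69, adjusted p = 0.00568) and *Piwil1* (-0.91, adjusted p = 0.0489) were lower. For the interaction, 0 of 14 and 0 of 18 genes passed.

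**Figure D4:**
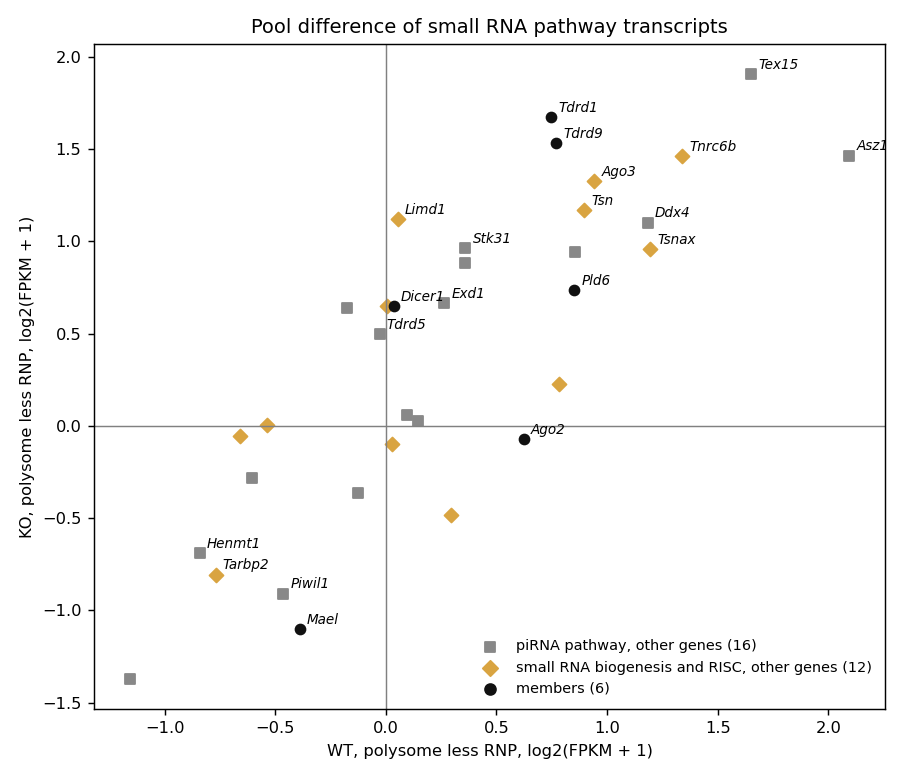
Difference between the polysome and RNP pools on the log2(FPKM + 1) scale in WT (x axis) and KO (y axis) for 6 of the 10 genes (black circles), 12 further RISC genes (orange diamonds) and 16 further piRNA genes (grey squares), with names for the 6 genes and for those called in KO. *Tex15*, *Tdrd1* and *Tdrd9* lay at the top (1.91, 1.67 and 1.53 in KO), and *Mael* lay low (-1.10).

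As a description, the transcripts whose log2(FPKM + 1) was most like that of the 2 highest genes were sought over the 12 libraries among 10949 genes. For *Tdrd1* these were *Srcap* (Pearson's r = 0.971), *Son* (0.967) and *Acox3* (0.966). For *Dicer1* they were *Serinc1* (0.977), *Ppme1* (0.964) and *Fkbp5* (0.964). The points share the 4 groups and are not independent. *Srcap* was at 13.6 and 17.7 FPKM in WT and KO polysomes and at 5.77 and 4.17 in the RNP pools, the same order of groups as *Tdrd1*. *Serinc1* was at 26.5 and 136 FPKM in WT and KO polysomes and at 18.8 and 37.3 in the RNP pools. Among the genes themselves the highest r was between *Tdrd1* and *Tdrd9* (0.893), and *Tdrd1* and *Mael* had -0.549.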

How the data were processed

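GV oocyte RNA from gradient pools was sequenced in 3 libraries of each genotype and pool, grouped by the sample labels. After trimming, the authors aligned reads to mm10 using TopHat2 2.0.13, and the deposited FPKM, 1 value for each gene symbol in each library, came from Cufflinks 2.2.1, and the submitters' processing notes also name Cuffnorm. The annotation release and the use of strand are not given in the sources used here. The authors' deposited log2 changes, p-values and q-values of their own comparisons were not used. The top of the gradient is given as 50% sucrose in the labels and as 55% in the study's methods, and the library kit also differs between sources.

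Tests were run in limma 3.58.1 (R 4.3.3), and summaries and plots were made in Python 3.11.15 using scipy 1.17.1, numpy 2.4.6, pandas 2.3.3 and matplotlib 3.10.9. The test used log2(FPKM + 1), empirical Bayes with an intensity trend, and Benjamini-Hochberg adjustment at 0.05 over all genes that reached an FPKM of 1 in 3 or more of the libraries compared. A change on this scale understates that of low genes. Low FPKM values rise in steps of 1 fragment, which gave an estimate of depth on the assumption of an effective length of the transcript less 200 bases, and 67.5% to 81.1% of low values lay within 0.1 of a whole fragment. The FPKM values hold no counts, so no counting interval is given. Positions and transcripts came from GENCODE M21 on GRCm38, and promoters from RefSeq on GRCm38, where 8 of the 10 genes were matched. The models were tested on simulated data.

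The genes and lists were chosen with earlier results of these data known. The genes named are the 10, *Lsm14b*, genes of the 2 pathway lists that were called in any of the 5 comparisons with a mean of at least 5 FPKM, and the 3 transcripts most correlated with each of the 2 highest genes. *Wdr77*, *Mybl1*, *Tdrd6*, *Mir300* and the markers *Inha*, *Inhba*, *Fshr*, *Cyp19a1*, *Kitl*, *Pecam1*, *Foxl2* and *Amhr2* were named after their values were seen. The alternatives were pseudocounts of 0.1 and 5, no filter and a filter at 5 FPKM, rescaling to the same median, quantile normalization, no intensity trend, the replicate number as a block, and each library left out in turn. A block of the replicate number within genotype was chosen after seeing the data.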

Additional observations from a re-analysis of the deposited data

How the results depend on the processing

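Of 488 values of single genes under an alternative (32 results), 454 kept their direction and their side of the threshold, 15 lost the call, 1 gained it and 18 changed sign, none of the last where either value was called. *Mael* in the RNP pool and the 4 calls between the KO pools were kept under every alternative and with every library left out. The count of the 10 genes called in polysomes, 1 (*Dicer1*), was 0 without the intensity trend (adjusted p = 0.0571), and 0 to 1 with 1 library left out. The count in the RNP pool, 2, was 1 (*Mael*) without the trend (*Dicer1* adjusted p = 0.100) and 1 with the replicate block (*Dicer1* adjusted p = 0.0883), and 1 to 2 with 1 library left out. With no filter on low values it was 3, through *Gpat2*, whose call is set aside. The count between the WT pools, 1 (*Tdrd1*), was 0 without the trend (adjusted p = 0.108) and 0 with the replicate block (adjusted p = 0.0538), and 0 to 1 with 1 library left out. Between the KO pools 4 to 5 were called with 1 library left out, the fifth being *Pld6* (1.18, adjusted p = 0.0391) without KO polysome replicate 2. The interaction called none of them throughout. The cause was not tested.

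The changes of sign came when 1 library was left out. The range was -0.37 to 0.078 for *Ago2* and -0.74 to 0.14 for *Pld6* between genotypes in polysomes, and -0.56 to 0.22 for *Pld6* and -0.21 to 0.13 for *Tdrd9* in the RNP pool. For the interaction it was -0.56 to 0.33 for *Pld6* and -0.26 to 0.33 for *Piwil2*. *Piwil2* was at or near 0 in WT and had no WT ratio to compare, so its interaction values are set aside. They are still among the 488 values and the 18 changes of sign counted above. Between pools the range was -0.072 to 0.20 for *Dicer1* in WT, and -0.28 to 0.17 for *Ago2* and -0.28 to 0.32 for *Piwil2* in KO.

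Over all genes, 989 were called in polysomes, against 545 with no filter, 508 without the trend and 383 to 522 without 1 KO polysome library. In the RNP pool 2057 were called, against 1255 to 1298 without 1 KO RNP library. Between the WT pools 1406 were called, against 728 without the trend and 780 to 786 without 1 WT RNP library. The interaction called 26, against 6 without the trend, 11 with the replicate block, 0 (1129 at an unadjusted p under 0.05 by limma) with the block within genotype, and 0 (without KO RNP replicate 2, with 999 at an unadjusted p under 0.05) to 46 (without WT polysome replicate 3) with 1 library left out. Libraries that share a replicate number did not deviate together (correlations of -0.0207 to 0.0255), and not every library correlated best with its own number. With 3 libraries per group these correlations cannot show whether libraries of the same number came from the same lysate, and the labels do not state it. The block changed no other call of the 10 genes. The low values of *Piwil2*, *Gpat2* and *Mov10l1* and the wide spread of *Pld6* and *Ago2* set the limit of what these libraries show.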

Other observations

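Of the further piRNA genes, *Mybl1*, a transcription factor that drives piRNA genes in the testis, was under a mean of 5 FPKM and was named after its values were seen. Its FPKM in the RNP pool was 4.01, 11.7 and 5.04 in WT and 1.01, 0.220 and 0.747 in KO, with no overlap. In polysomes it was 1.80, 2.23 and 5.99 in WT and 0.621, 0.165 and 0 in KO. It met the filter on low values through the WT libraries, where it was high, so no test is given. *Tdrd6*, a Tudor-domain protein of germ granules, was also under that mean and named after its values were seen. It was at 2.13, 2.32 and 2.11 FPKM in KO polysomes and at 0.188, 0.0846 and 0.437 in the KO RNP pool, and since it met the filter through KO polysomes alone, no test is given.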
